A study of Mus musculus with 7 samples.

Results

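The Sox transcription factors are examined here in mouse embryonic stem cells (ESCs) that carry or lack the distal enhancer of Sox2. The members were 10 Sox genes chosen by name, and 9 of them were found among the 31498 genes of the GENCODE M1 annotation with at least 200 bases of their own. The tenth, Sox1, is not in that annotation, so it was placed separately by its RefSeq promoter sequence. The 9 genes were Sox2, Sox3, Sox4, Sox9, Sox11, Sox12, Sox13, Sox15 and Sox21. RNA-seq of polyA RNA was available from 4 cultures of F123, ESCs derived from F1 hybrids of Mus musculus castaneus (CAST) and the 129 strain S129/SvJae. The wild type, CAST+/129+, has both copies of the enhancer, CAST+/129- lacks the 129 copy, CAST-/129+ lacks the CAST copy, and CAST-/129- lacks both. Each deletion was made with CRISPR and a pair of guide RNAs, each deletion genotype was 1 clone, and every genotype was 1 library. The clones were recovered on mouse embryonic fibroblast feeders with puromycin and were passaged without feeders on gelatin before harvest. ChIP-seq for H3K4me3 in F123, for H3K27ac in F123 and for H3K27ac in J1, an ESC line of 129 background, added 3 libraries of cells with the enhancer intact.

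Sox proteins bind DNA through an HMG box that reads short sequences around the core CATTGT, written here on 1 strand, and bends the helix. They act mostly with partners, and in ESCs Sox2 sits beside Oct4 (Pou5f1) on composite elements of pluripotency genes, its own included. The family is divided by protein similarity. Sox1, Sox2 and Sox3 form the B1 group of activators in ESCs and neural progenitors, and Sox21 belongs to the B2 repressors that counter them. Sox4, Sox11 and Sox12 form group C, with roles in progenitors and differentiating cells. Sox13 is a D factor without an activation domain of its own, Sox9 of group E drives cartilage and testis development, and Sox15 is the sole G factor. H3K4me3 marks the starts of genes that are active or poised, and H3K27ac marks active promoters and enhancers.

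Values of the 4 RNA-seq libraries are given below in 1 order, wild type, CAST+/129-, CAST-/129+ and CAST-/129-, unless the genotypes are named. Counts on genes were 24848422, 12458881, 6058939 and 5831199. A count is 1 distinct alignment, since the files join identical alignments, and FPKM is counts per kilobase of the gene per 1000000 counts on genes. Ranges in parentheses are exact 95% counting intervals, Poisson for a level and binomial for a ratio. They are too narrow, because both mates of a fragment appear to be listed, and they hold no spread between cultures. With 1 library for each genotype no difference could be tested. A gene was called up or down where its ratio to wild type, taken on FPKM plus 4, reached 3-fold.

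Sox2 was the one member called, down in CAST-/129-. There it was 1 of 9 members down, where 0.511% of all genes were called down, and 0 of 9 members were up, where 0.819% of all genes were. In CAST+/129-, 0 of 9 members were called up and 0 down, against 0.321% of all genes up and 0.305% down. In CAST-/129+, 0 of 9 were again called in either direction, against 0.473% up and 0.330% down. In each clone 6 members had a ratio above 0 and 3 below, and the median log2 ratio of the members was 0.21, 0.33 and 0.11 in CAST+/129-, CAST-/129+ and CAST-/129-. Over all genes tested the median was 0.00 in each. In the same order, 10559, 10538 and 9740 of the 31498 genes were above 0 and 12107, 12106 and 12276 below, with the rest at 0. Over 10809 genes with at least 5 FPKM in any library the medians were -0.01, -0.07 and -0.09. The added 4 limits calls on members that are low in wild type. Sox3, Sox9, Sox11, Sox15 and Sox21 could not have been called down, even without a count. On plain FPKM, Sox15 and Sox21 in CAST+/129- were 4.18-fold and 3.97-fold wild type. In CAST-/129+, Sox3, Sox9, Sox11 and Sox21 were 4.02-fold, 7.06-fold, 3.81-fold and 3.03-fold wild type. In CAST-/129-, Sox3, Sox9 and Sox11 were 7.10-fold, 6.87-fold and 4.74-fold.

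**Figure D1:**
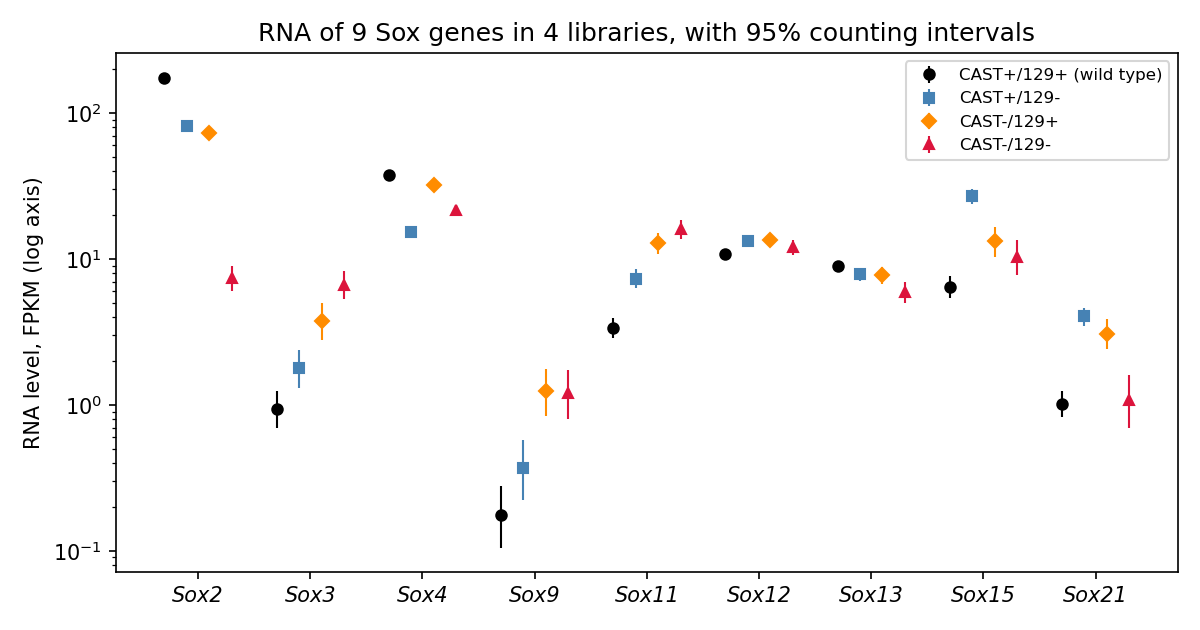
RNA level of 9 Sox genes (FPKM, log axis) in the wild type and the 3 deletion clones, 1 point for each library, with exact 95% Poisson intervals of the count. Sox2 spans 175 to 7.40 FPKM, while Sox12 stays between 10.9 and 13.6.

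Sox2, the gene that the deleted enhancer was chosen for, lies at chr3:34548927-34551383 on the plus strand of mm9. Its RNA level was 175 FPKM (171 to 178), 82.0 (78.8 to 85.3), 73.1 (68.8 to 77.6) and 7.40 (6.06 to 8.95). All 3 clones were below wild type, and the clone without either copy was far below the other two. As a percent of wild type these were 46.9 (44.9 to 49.0), 41.8 (39.3 to 44.5) and 4.23 (3.46 to 5.13), and the log2 ratios were -1.06, -1.21 and -3.97. In bulk RNA, fewer cells that express the gene and less RNA per cell cannot be told apart. Of all 31498 genes, 0% had a lower ratio than Sox2 in CAST-/129-, and 1.10% and 0.892% did in CAST+/129- and CAST-/129+. The 2 clones with 1 copy left differed little from each other, with CAST+/129- at 1.12 (1.04 to 1.21) times CAST-/129+. Joining identical alignments touched Sox2 most in the deepest library, with 2.44 reads per alignment in wild type against 1.35, 1.31 and 1.13 in the clones. From reads instead of alignments, Sox2 in CAST+/129- and CAST-/129+ was 38.0% and 35.9% of wild type.

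The lower level in CAST-/129- ran along the whole transcript. Its first, middle and last parts, of equal length, held 41, 29 and 36 counts, which were 4.74% (3.39 to 6.44), 3.47% (2.32 to 4.99) and 4.49% (3.14 to 6.22) of the same parts in wild type. In CAST+/129- the parts were 47.1%, 50.9% and 42.7% of wild type, and in CAST-/129+ they were 38.8%, 41.8% and 45.1%. No part kept the wild type level in any clone. Counts on the opposite strand of Sox2 were 101, 13, 7 and 0.

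**Figure D2:**
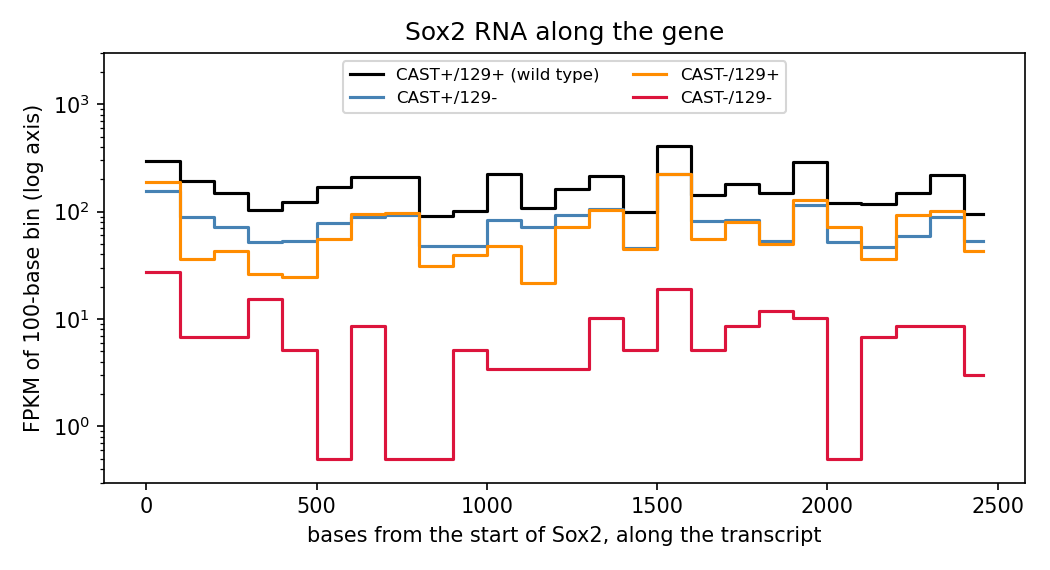
Sox2 RNA in 100-base bins along the gene (x axis, bases from its start, y axis, FPKM of the bin on a log axis), 1 line for each library. A bin without a count is drawn at 0.5 FPKM, and the CAST-/129- line lies below the other 3 lines along the gene.

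Sox2 was most of the Sox RNA in wild type and a small part of it in CAST-/129-. Its share of the summed FPKM of the 9 genes was 71.7%, 51.6%, 45.4% and 8.99%. It was the first of the 9 by level in the first 3 libraries and the fifth in CAST-/129-, behind Sox4, Sox11, Sox12 and Sox15. In CAST-/129- its interval overlapped those of Sox15, Sox3 and Sox13, so that its rank there is within counting error. The sum of the 9 genes was 244, 159, 161 and 82.3 FPKM. Without Sox2 the other 8 genes summed to 69.1, 76.9, 87.9 and 74.9 FPKM, so that without Sox2 no clone was below the wild type sum.

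**Figure D3:**
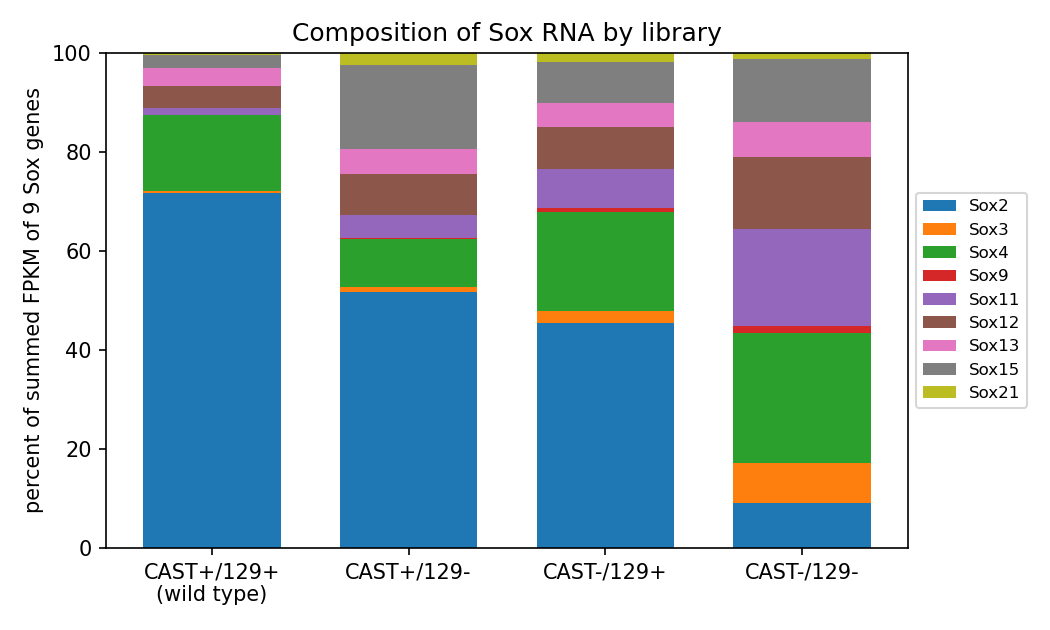
Share of each of 9 Sox genes in their summed FPKM (y axis, percent) in 4 libraries (x axis). Sox2 takes 71.7% in wild type and 8.99% in CAST-/129-, where Sox4 takes 26.3% and Sox11 19.5%.

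Sox3, the X-linked B1 gene, had low levels that were ordered opposite to those of Sox2. It lies at chrX:58144545-58146605 on the minus strand. Its level was 0.937 FPKM (0.691 to 1.24), 1.79 (1.31 to 2.39), 3.76 (2.77 to 5.01) and 6.66 (5.28 to 8.28), from 48, 46, 47 and 80 counts. The 4 intervals did not overlap, but those of wild type and CAST+/129- nearly met. As the intervals are too narrow, the order of these libraries is uncertain. In CAST-/129- this was 7.10-fold wild type, yet 1.11 as a log2 ratio on FPKM plus 4, which shrinks ratios of low genes and kept it under the threshold. The intervals of Sox2 and Sox3 overlapped in CAST-/129-, at 7.40 and 6.66 FPKM, while in wild type Sox3 was 0.384% of the summed Sox RNA. The median log2 ratio of 384 X-linked genes with a mean of at least 5 FPKM was 0.00, -0.04 and -0.14 in CAST+/129-, CAST-/129+ and CAST-/129-.

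Sox1 completes the B1 group, and its levels followed another order than those of Sox2 or Sox3. Its start was found by 1 exact match of the RefSeq promoter on mm9, at position 12395519 of chromosome 8 on the plus strand, and RNA was counted on the sense strand over the RefSeq gene length, chr8:12395519-12399555, without the 86 bases of an annotated miRNA. The level was 8.31 FPKM (7.75 to 8.90), 2.15 (1.76 to 2.60), 1.09 (0.709 to 1.59) and 13.2 (11.8 to 14.8), from 816, 106, 26 and 304 counts. Both clones with 1 copy deleted were below wild type, and the clone with both deleted was above it, with no overlap. The log2 ratios on FPKM plus 4 were -1.0, -1.28 and 0.48, all under 3-fold on that scale. On plain FPKM the levels as a percent of wild type were 25.9, 13.1 and 159, so that both lower levels were past 3-fold. From 8.31 FPKM in wild type, a down call on FPKM plus 4 would have needed almost no Sox1 RNA. The window lies inside Gm5607, a gene of the same strand whose own exons held 8, 3, 2 and 0 counts. Chromosome 8 as a whole was lower in 2 clones, with a median log2 ratio over 546 genes of 0.07 in CAST+/129-, -0.34 in CAST-/129+ and -0.28 in CAST-/129-, and its part in the Sox1 values was not tested. Sox1 has no annotated gene here, so it is outside the counts of members given above.

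Sox21, the B2 repressor, was higher in the 2 clones with 1 copy deleted and near wild type in the clone with both deleted. Its levels were 1.02 FPKM (0.824 to 1.24), 4.04 (3.48 to 4.65), 3.08 (2.41 to 3.89) and 1.08 (0.694 to 1.61). The wild type and CAST-/129- intervals overlapped, and those of the other two also overlapped each other but lay above both. The log2 ratios were 0.68, 0.50 and 0.02. Sox21 lies at chr14:118632454-118636252 on the minus strand.

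**Figure D4:**
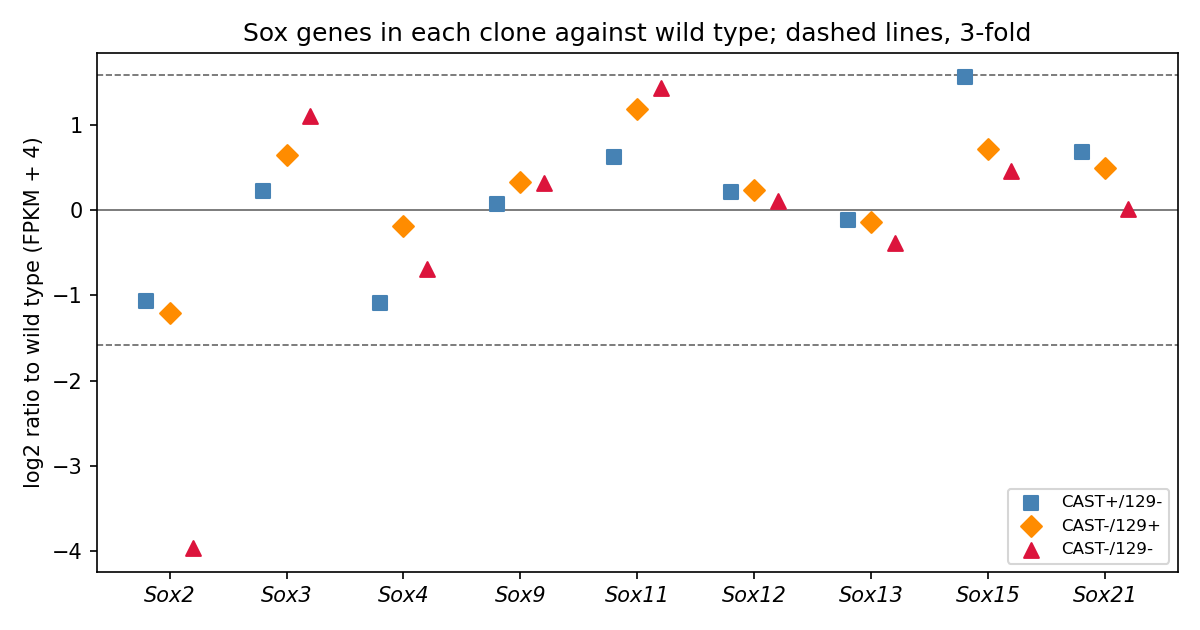
log2 ratio to wild type on FPKM plus 4 (y axis) of 9 Sox genes (x axis) in 3 deletion clones, 1 point for each clone, with dashed lines at 3-fold. Sox2 in CAST-/129-, at -3.97, lies past the dashed lines, and Sox15 in CAST+/129-, at 1.57, lies just inside.

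The group C genes took 3 different courses. Sox4, at chr13:29040788-29045582 on the minus strand, was the second most abundant member in wild type, with levels of 37.4 FPKM (36.2 to 38.5), 15.4 (14.4 to 16.5), 32.3 (30.2 to 34.6) and 21.6 (19.8 to 23.5). The 4 levels did not overlap and were not ordered by copies deleted, since the lowest belonged to a clone with 1 copy left. In CAST+/129- the log2 ratio of Sox4, -1.09, was close to that of Sox2, -1.06, and in CAST-/129+ it was -0.19. A short second entry for Sox4 in the annotation covers some of its exonic bases, which were left out, so the level stands on 4390 bases.

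Sox11, at chr12:28025562-28027574 on the minus strand, is a gene of neural and mesenchymal progenitors. Its level was 3.38 FPKM (2.89 to 3.93), 7.34 (6.31 to 8.48), 12.9 (10.9 to 15.1) and 16.0 (13.8 to 18.5). All 3 clones were above wild type, and the last of them overlapped in interval with CAST-/129+. The largest log2 ratio among the members, apart from Sox15 in CAST+/129-, was that of Sox11 in CAST-/129-, at 1.44, where 99.0% of genes had a lower ratio. The sixth member by level in wild type, Sox11 was the second in CAST-/129-.

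Sox12, at chr2:152219347-152223782 on the minus strand, stayed within a narrow range. It was 10.9 FPKM (10.2 to 11.5), 13.2 (12.2 to 14.2), 13.6 (12.2 to 15.1) and 12.0 (10.7 to 13.5). The log2 ratios were 0.21, 0.24 and 0.11, and the interval of CAST-/129- overlapped that of every other library. CAST+/129- and CAST-/129+, at 122% (110.4 to 134) and 125% (111 to 141) of wild type, did not overlap wild type. Sox13, the D factor at chr1:135278880-135320954 on the minus strand, was lowest in CAST-/129-. It was 8.92 FPKM (8.37 to 9.51), 7.86 (7.12 to 8.64), 7.73 (6.70 to 8.87) and 5.93 (5.01 to 6.96), which was 88.0% (78.3 to 98.8), 86.7% (74.1 to 101) and 66.4% (55.5 to 79.0) of wild type in the clones.

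Sox15, which can pair with Oct4 on DNA as Sox2 does, came closest to being called up. It lies at chr11:69468816-69470229 on the plus strand. Its level was 6.45 FPKM (5.42 to 7.62), 26.9 (23.9 to 30.2), 13.2 (10.3 to 16.7) and 10.4 (7.74 to 13.6). All 3 clones were above wild type, and CAST+/129- was above the other clones. The intervals of wild type and CAST-/129- nearly met, and they are too narrow. The log2 ratio of 1.57 in CAST+/129- was just under 3-fold, and it passed under 3 other settings at the same threshold. In that library Sox15 was second to Sox2 among the members, with 17.0% of the summed Sox RNA against 2.65% in wild type. The ratio of CAST+/129- to CAST-/129+ was 2.04 (1.56 to 2.69).

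Sox9, at chr11:112643538-112649074 on the plus strand, was the lowest member in wild type. It was 0.175 FPKM (0.104 to 0.277), 0.369 (0.222 to 0.576), 1.24 (0.841 to 1.76) and 1.20 (0.805 to 1.73), from 18, 19, 31 and 29 counts. The last 2 clones lay above the first 2 libraries, whose intervals overlapped. Of 5 cartilage genes that Sox9 is known to regulate, Col2a1, Col9a1, Col11a2, Acan and Matn1, 0 were called in any clone, and their summed level was 4.13, 2.50, 2.52 and 5.02 FPKM. All 5 were at or under 1.63 FPKM in wild type, so on FPKM plus 4 none could be called down. Of all genes, 0.321%, 0.473% and 0.819% were called up in the clones. On plain FPKM, Acan was 45.7%, 26.2% and 34.4% of wild type and Col2a1 107%, 131% and 248%.

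Among the other 10 mouse Sox genes 0 were called, and 2 reached 1 FPKM in some library. The shares of all genes called were 0.321%, 0.473% and 0.819% up and 0.305%, 0.330% and 0.511% down in the clones. On FPKM plus 4 only Sox7 was high enough in wild type to be called down, and only with almost no RNA left. Both belong to group F, of endoderm and endothelium. Sox7 was 8.26 FPKM in wild type and 1.56, 3.15 and 1.09 in CAST+/129-, CAST-/129+ and CAST-/129-. Sox17 was 4.73, 1.78, 6.54 and 4.95 FPKM. Sox7 was thus lower in each clone, at 18.9%, 38.2% and 13.2% of wild type, while Sox17 was lower in CAST+/129- alone.

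Markers of other cell types differed between these libraries to unequal degrees, and their part in the Sox levels was not tested. The 9 trophectoderm markers summed to 29.6 FPKM in wild type and 374, 610.0 and 571 in CAST+/129-, CAST-/129+ and CAST-/129-, where 4, 5 and 4 of 9 were called up, Krt8, Krt18, Krt7 and Hand1 in each clone and Eomes in CAST-/129+, and 0 were at 0. Of all genes 0.321%, 0.473% and 0.819% were called up in these clones, and 0.305%, 0.330% and 0.511% were called down. Most of the sum in the clones was the keratins Krt8, at 139, 264 and 279 FPKM, and Krt18, at 133, 229 and 231, while Hand1, a factor of trophoblast giant cells, was 0.524, 43.9, 43.8 and 19.8 FPKM over the 4 libraries. The 10 fibroblast markers summed to 21.7, 76.7, 80.4 and 422 FPKM, with 2, 2 and 7 of 10 called up, and Lum, a stromal proteoglycan, was at 0 in wild type and 8.60 FPKM in CAST-/129-. Col1a1 and Col1a2 were called up in each clone, while 2 of 10 in CAST+/129- and 1 of 10 in CAST-/129+ were below wild type, among them Thy1 at 11.4, 5.69, 6.28 and 27.7 FPKM. Sox3 and Sox11 had the same order over the 4 libraries as this sum, and Sox2 had the opposite order. That order was not particular to fibroblast markers. Krt8, Krt18 and Lefty1, described below, also had the order of Sox3, and the ES cell marker sum below had that of Sox2. The trophectoderm, endoderm and neural progenitor sums had other orders. The 5 endoderm markers, among them Sox17, summed to 70.1, 7.64, 46.2 and 32.6 FPKM. Gata6, a regulator of primitive endoderm, was called down in each clone, from 42.9 FPKM to 2.94, 6.77 and 4.51, beside the lower Sox7, and Gata4 was called down in CAST+/129-. In CAST-/129+ and CAST-/129- 3 of the 5 had a ratio above 0, with Foxa2 at 1.36, 0.643, 9.05 and 11.4 FPKM and Cxcr4 at 3.58, 0.444, 10.9 and 7.78, neither called. The 9 neural progenitor markers summed to 13.4, 42.3, 34.8 and 52.3 FPKM, with 3, 1, 3 and 2 of them at 0, and Nes, an intermediate filament gene, was called up in CAST+/129- and CAST-/129-. Most of that sum was Nes, at 1.80, 14.3, 10.5 and 19.9 FPKM, and Tubb3, at 10.9, 26.7, 22.4 and 29.0, and the median log2 ratio of the list was 0.02, 0.00 and 0.05 in the clones. The 7 ES cell markers summed to 1474, 1446, 1367 and 1057 FPKM with 0 at 0, and Esrrb, Nanog and Zfp42 were called down in CAST-/129-. Joining identical alignments lowered this sum most in wild type. Dppa5a, a marker in it, had 7.90 reads per alignment there against 4.58, 3.55 and 2.87 in the clones.

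Pou5f1, which encodes Oct4, the partner of Sox2, was 188, 132, 207 and 163 FPKM. On distinct alignments, Sox2 RNA was thus 4.23% and Pou5f1 RNA 86.7% of wild type in CAST-/129-. Joining identical alignments touched Pou5f1 more than Sox2, with 4.26 reads per alignment in wild type against 2.10, 1.93 and 1.71 in the clones. It lowered wild type most. Reads on Pou5f1 were 44935, 7790, 5455 and 3677, while whole libraries had 2.58, 2.02, 2.03 and 1.84 reads per alignment. A percent of wild type from reads was not computed for Pou5f1. Its near-wild-type level in CAST-/129- and its higher level in CAST-/129+ therefore stand on distinct alignments only. Of 9 genes known for composite Sox2-Oct4 elements, 0 were called in CAST+/129-, 1 was up in CAST-/129+, and 1 was up and 1 down in CAST-/129-. Of all genes, 0.321% were called up and 0.305% down in CAST+/129-, and 0.473% up and 0.330% down in CAST-/129+. In CAST-/129- 0.819% were called up and 0.511% down. The median log2 ratios of the 9 genes were -0.03, 0.01 and -0.33. The gene called up in both was Lefty1, an antagonist of Nodal signalling, at 6.50, 23.9, 43.9 and 103 FPKM. The gene called down was Nanog, at 130.0, 115, 76.5 and 38.9 FPKM. Fgf4, whose enhancer holds such an element, was 53.8, 37.3, 34.2 and 22.5 FPKM, at 41.8% of wild type in CAST-/129- and under the threshold. Of the 4 TCF/LEF factors, which share the HMG box with the Sox family, 0 were called in any clone. That is near the shares of all genes given above. Lef1, although not called, was 0.0651 FPKM (0.0356 to 0.109), 5.36 (4.93 to 5.82), 6.81 (6.12 to 7.55) and 4.78 (4.19 to 5.42). Its log2 ratios on FPKM plus 4 were 1.20, 1.41 and 1.11.

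The genes whose 3 log2 ratios lay nearest to those of Sox2, among 4520 others with at least 20 FPKM in wild type, were Tuba3b, Npl, Tuba3a, Dazl and Fam25c. The measure was the Euclidean distance over the 3 clones, which share the wild type library, and the distances were 0.69, 0.71, 1.40, 1.52 and 1.56. Npl, which encodes a sialic acid lyase, was 58.1, 24.5, 15.8 and 1.83 FPKM. Dazl, an RNA-binding protein of germ cells, was 73.4, 19.4, 13.7 and 5.97 FPKM. Tuba3a and Tuba3b encode near-identical tubulins, so reads may be split between them and the 2 values are uncertain.

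The marks at the Sox starts in cells with the enhancer intact separated the members. Distinct alignments numbered 7108751 for H3K4me3, 1576875 for H3K27ac of F123 and 7743500 for H3K27ac of J1. Alignments were counted by their 5′ ends within 2 kb on each side of the start and divided by the mean density of the library, with no input library, and a start over 5 times the mean is called marked. H3K4me3 marked 8 of 9 members in F123, where 46.0% of 21964 protein-coding starts were marked. H3K27ac marked 5 of 9 in F123, against 27.5% of starts, and 3 of 9 in J1, against 22.3%. Sox2, Sox12 and Sox15 were marked in all 3 libraries. Scaled to the mean of its own chromosome, H3K4me3 marked 7 of 9, with Sox15 and Sox9 lost and the X-linked Sox3 gained, and Sox15 was also lost with a window of 5 kb and at 10 times the mean.

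**Figure D5:**
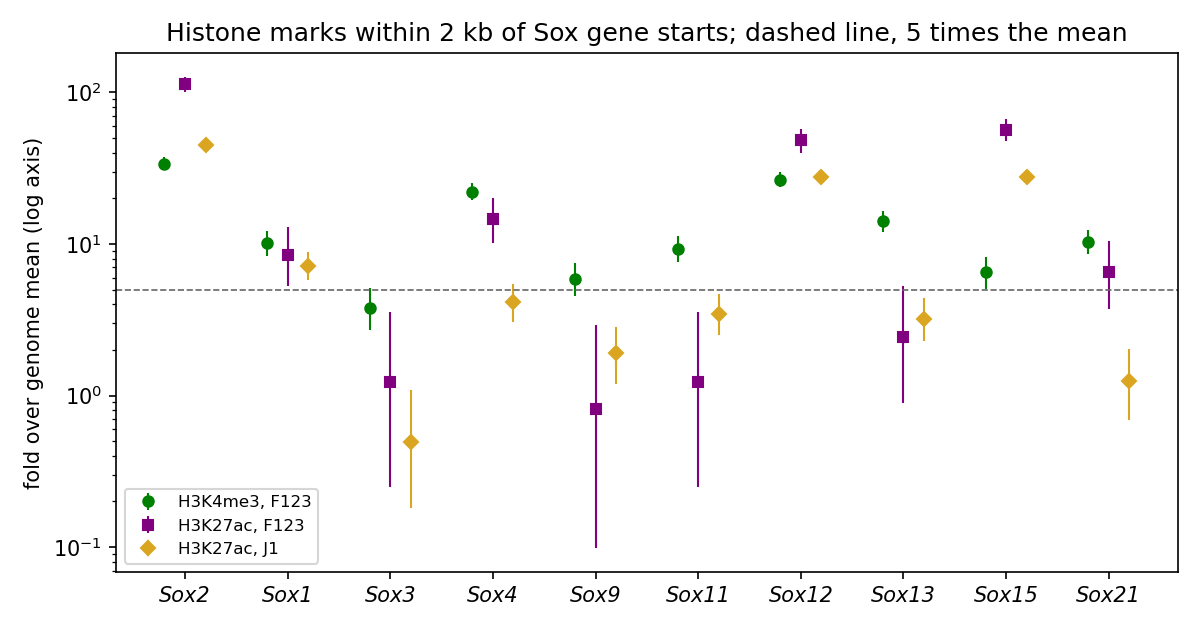
Histone marks within 2 kb of 10 Sox gene starts (x axis) as fold over the genome mean (y axis, log) in 3 ChIP-seq libraries, with exact 95% Poisson intervals and a dashed line at 5 times the mean. Sox2 is highest in each library, and Sox3 lies under the line in all of them.

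Sox2 had the highest values of the family. H3K4me3 was 33.9 times the mean (30.6 to 37.5), H3K27ac in F123 was 113 times (99.8 to 127) and H3K27ac in J1 was 45.0 times (41.3 to 48.9), above 99.8%, 99.9% and 99.9% of all starts. Sox12 followed the same pattern at 26.5, 48.2 and 27.7 times. Sox15 differed from both in its low H3K4me3, 6.48 times (5.07 to 8.16), beside an H3K27ac of 56.8 times in F123 and 27.7 times in J1. The nearest start of another protein-coding gene, Mpdu1, was 7.33 kb from that of Sox15 and outside the window.

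The remaining members were weaker in H3K27ac. Sox4 was 22.1 times the mean in H3K4me3, and 14.6 times (10.2 to 20.2) in H3K27ac of F123 against 4.13 times (3.06 to 5.44) of J1. Sox21 was 10.3 times in H3K4me3 and 6.49 times (3.71 to 10.5) in H3K27ac of F123, from 16 counts, with 1.24 times in J1. Sox13, Sox11 and Sox9 had H3K4me3 of 14.1, 9.27 and 5.85 times and were under 5 times in H3K27ac of both lines, at 2.43, 1.22 and 0.811 times in F123. Sox3 was marked in none, at 3.78 times (2.72 to 5.11) in H3K4me3. The intervals of Sox3 and Sox9 in H3K4me3 of Sox21 and Sox13 in H3K27ac of F123 and of Sox4 in H3K27ac of J1 hold the value 5, so that these calls are within counting error. Sox1, from its RefSeq start, was at 10.2, 8.51 and 7.18 times, over the threshold in all 3 libraries.

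Wild type RNA levels by class of mark overlapped within the family. Over all protein-coding starts the median was 19.3 FPKM with both marks in F123, 6.47 with H3K4me3 alone and 0.0622 with neither. The members with both marks ran from 175 FPKM for Sox2 to 1.02 for Sox21. Those with H3K4me3 alone were Sox13 at 8.92, Sox11 at 3.38 and Sox9 at 0.175 FPKM, and Sox3, with neither, was at 0.937. This is a description over 9 genes, and the ChIP-seq and RNA-seq come from separate cultures.

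The promoters of 4 members are printed because they differ in both marks and base composition, as the 250 bases before the start on mm9 with each CG dinucleotide in capitals. Sox2, with both marks highest, is at chr3:34548667-34548916 (plus strand) and has 27 CG dinucleotides. Sox12, at chr2:152223783-152224032 (minus strand), has 35, the most among the members. Sox15, at chr11:69468289-69468538 (plus strand), has 5, the fewest, with high H3K27ac. Sox3, at chrX:58146606-58146855 (minus strand), has 16 and neither mark. The start is the annotated or the RefSeq one, whichever lies further upstream.
Sox2 promoter: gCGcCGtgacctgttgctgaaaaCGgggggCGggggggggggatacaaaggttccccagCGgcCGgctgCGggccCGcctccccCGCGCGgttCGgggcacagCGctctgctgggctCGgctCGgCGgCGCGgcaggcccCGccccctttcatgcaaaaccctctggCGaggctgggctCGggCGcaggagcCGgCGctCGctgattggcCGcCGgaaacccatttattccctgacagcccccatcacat
Sox12 promoter: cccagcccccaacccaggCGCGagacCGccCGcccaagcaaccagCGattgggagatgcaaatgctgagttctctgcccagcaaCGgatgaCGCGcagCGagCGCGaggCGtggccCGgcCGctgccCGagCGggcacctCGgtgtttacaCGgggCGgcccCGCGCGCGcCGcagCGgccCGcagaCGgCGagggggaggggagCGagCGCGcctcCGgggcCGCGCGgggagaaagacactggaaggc
Sox15 promoter: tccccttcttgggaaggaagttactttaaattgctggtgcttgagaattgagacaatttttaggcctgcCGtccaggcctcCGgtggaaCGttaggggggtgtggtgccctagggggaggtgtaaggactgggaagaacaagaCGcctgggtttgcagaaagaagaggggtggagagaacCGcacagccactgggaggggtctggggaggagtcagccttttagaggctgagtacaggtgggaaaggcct
Sox3 promoter: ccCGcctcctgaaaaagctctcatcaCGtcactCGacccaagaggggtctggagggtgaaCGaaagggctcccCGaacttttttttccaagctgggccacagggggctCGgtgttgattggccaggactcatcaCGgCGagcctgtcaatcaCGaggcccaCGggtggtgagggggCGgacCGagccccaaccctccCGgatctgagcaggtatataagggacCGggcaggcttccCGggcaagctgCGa

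The median over 21959 protein-coding promoters of this length was 9 CG dinucleotides, and Sox15 was the one member under it. Sox12 had more than 96.6% of promoters, Sox1, with 29, more than 92.5%, and Sox2 more than 90.5%. The letters CATTGT of the Sox core were found on neither strand of any member's window, where 9.07% of all promoters hold them. The octamer ATGCAAAT, read by Oct factors, was found in Sox12, where 1.60% of promoters hold it. CCAAT was found in Sox2, Sox3, Sox4, Sox9, Sox11, Sox12 and Sox1, and in 35.0% of all promoters, and TATAAA in none of the members, where 12.2% hold it. GGGCGG was found in Sox2, Sox3, Sox11, Sox12, Sox13 and Sox1, and in 40.0% of all promoters. Both strands were searched, and a match is a match of letters only.

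Away from starts, H3K27ac within 200 kb was most extensive near Sox15, Sox2 and Sox1. In 1 kb bins more than 2 kb from any annotated start, 54 bins near Sox15 were over 5 times the mean in F123 and 39 in J1. Near Sox2 there were 45 and 37, near Sox1 41 and 44, and the median over all protein-coding genes was 7 and 5. Around Sox2 this exceeded 96.3% of genes in F123 and 94.3% in J1. Sox3 had 0 in both lines, and Sox11 had 0 in F123 and 2 in J1. The region around Sox15 is dense in genes, with 196 bins away from starts against 368 near Sox2, whose nearest other protein-coding start, Dnajc19, was 569 kb away.

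Bins over 5 times the mean were joined across gaps of up to 2 kb. Joined stretches that reached within 2 kb of any annotated start were left out. Of the rest, the stretch with the most alignments was taken for each member that had one. Near Sox2 it was chr3:34650001-34671000 in F123, 21000 bases long and starting 101 kb downstream of the Sox2 start. It was at 45.3 times the mean (41.7 to 49.2), and in J1 the stretch from the same edge was 24000 bases long at 23.5 times (22.4 to 24.6). The study describes the deleted enhancer as an H3K27ac-marked region downstream of Sox2, and the cut sites were not placed here. Near Sox1 the strongest stretch was chr8:12477001-12489000 in F123, 12000 bases long, 81.5 kb downstream, at 24.6 times (21.2 to 28.4). Among these stretches away from starts, the strongest of no other member was over 6000 bases in F123. The strongest near Sox13, 66.0 kb upstream of its start, was 5000 bases long at 58.4 times, so its height passed that of the Sox2 stretch and its length did not.

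The letters CATTGT, any 1 base and then ATG, a Sox core followed by the start of an Oct half-site, were searched on both strands within 200 kb of each start. Near Sox2 there were 6 and near Sox1 5, and in each case 2 fell in bins over 5 times the J1 H3K27ac mean. Near the other 8 members 0 did. Over the reference 1.81% of 27581 such matches fell in these bins, which make up 2.21% of it. Near Sox2 and Sox1 such bins were more frequent, at 10.1% and 11.7% of the J1 bins away from starts. Matches per Mb were 15.0 and 12.5 there, against 10.8 over the reference. The reference share is thus not the local background, and an excess of matches in these bins was not tested. The matches are printed with 10 bases on each side, in the direction of CATTGT, with the match in capitals. Those near Sox2 are at chr3:34552961-34552990 (plus strand), 4044 bases downstream of the start, and at chr3:34664063-34664092 (minus strand), 115146 bases downstream and inside the stretch described above. The flank just downstream of Sox2 is known for an enhancer called SRR2, which Sox2 and Oct4 bind. Those near Sox1 are at chr8:12545796-12545825 (plus strand) and chr8:12546463-12546492 (minus strand).
Sox2 site: ctcgggcagcCATTGTGATGcatataggat
Sox2 site: gccacaatgtCATTGTTATGgttgtcacaa
Sox1 site: actcttggacCATTGTAATGtaatgctcag
Sox1 site: ctaccagagaCATTGTGATGgctccatatg

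The bin of the first Sox2 match was at 66.5 times the H3K27ac mean in F123 and 37.0 times in J1, with H3K4me3 at 16.2 times. The bin of the second was at 32.4 and 25.1 times with H3K4me3 at 2.88 times. The bins of the Sox1 matches were at 29.2 and 19.5 times in F123. None of these libraries measured where Sox2 protein was bound.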

How the data were processed

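RNA-seq reads were aligned by the authors to mm9 with Novoalign, and the submitters' processing notes also name Bowtie. Each line of the deposited files is an alignment position with a count of the reads that share it. Distinct alignments were counted by their midpoint, on the strand opposite to the line, in exonic bases of 1 gene in GENCODE M1. For ChIP-seq, 5′ ends were counted on chromosomes 1 to 19 and X. Between 21.2% and 25.6% of RNA-seq lines had a line of the same length 2 bases before, against 6.54% to 8.10% at 3 bases, so mates of short fragments appear to be listed separately.

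The pseudo-value of 4 and the 3-fold threshold follow the study's methods. Members, lists and tests were chosen with earlier results of these data known. Genes named are the 10 members, other Sox genes with at least 1 FPKM in a library, Pou5f1, list members called in any clone and the 5 genes nearest to Sox2. The fibroblast markers Col3a1, Col6a1, Dcn and Postn, called up in CAST-/129-, were left unnamed above. Fgf4, Foxa2, Cxcr4, Thy1, Tubb3, Lef1, Dppa5a, the cartilage genes, Gm5607 and genes at nearest starts are named besides, chosen after values were seen. Calls were tested on simulated data in which 200 genes with at least 20 FPKM in wild type were changed 6-fold. Of the annotated members only Sox2 and Sox4 reach that level, so the simulation does not cover the others. Alternatives changed the library size, strand, collapsing, pseudo-value, threshold, gene set, promoter window and start. Sequences were read from NCBIM37. RefSeq promoter sequences (GRCm38) were available for 8 of the 10 members, all but Sox3 and Sox9, and each matched exactly. Alleles were not told apart. Python 3.11.15, numpy 2.4.6, scipy 1.17.1, pysam 0.24.0 and matplotlib 3.10.9 were used.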

Additional observations from a re-analysis of the deposited data

How the results depend on the processing

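Among comparisons, 58 alternative values stayed within the limits set and 14 moved. A reversal was not defined for them. In CAST+/129- the count of members past 3-fold was 1 (Sox15) with median-of-ratios scaling, with protein-coding genes only and with a pseudo-value of 1, and 3 at a 2-fold threshold. In CAST-/129+ it was 1 (Sox11) with a pseudo-value of 1 and 2 at 2-fold. In CAST-/129- it was 3 (Sox2, Sox3 and Sox11) in both of these. Sox2 as a percent of wild type was 38.0 in CAST+/129- and 35.9 in CAST-/129+ from reads before collapsing, and 45.0 in CAST-/129+ with lines 2 bases apart counted once, a setting added after the data were seen. Members marked by H3K4me3 in F123 were 5 with a window of 5 kb and 5 at 10 times the mean, and by H3K27ac in J1 they were 6 at 3 times the mean. For the 9 annotated members, the sign of the ratio in each clone was kept under 8 of 8 alternatives, except Sox21 in CAST-/129-, with 7 of 8, and Sox1 was run under no alternative. The pseudo-values of 1 and 10 are among these alternatives and cannot change a sign. No paired analysis was possible because the labels carry no replicate numbers and each group is 1 library. The F123 H3K27ac library gives 2.47 counts for a start at its mean, which limits calls on Sox13 and Sox21.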
